A study of Jaculus jaculus with 13 samples.

Results

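A set of 347 genes in the Jerboa kidney fell in 2 steps, first between control and dehydration and again between dehydration and rehydration. They were chosen from 24433 annotated genes, of which 13828 reached a mean count of 20. Values are CPM, counts of a gene scaled to the same total in every animal. A gene was taken when every dehydrated animal was below every control and every rehydrated animal was below every dehydrated one. The mean of the dehydration group also had to be at most 0.8 times the control mean, and the mean of the rehydration group at most 0.75 times the dehydration mean. The rule gave 351 genes, and 4 that the study names by symbol with an identifier were left out. Genes it names by symbol alone could not be recognised in the table, so any among them remain. The rule used the values of all 3 groups, so the differences between groups given here describe the set and are not tests of it.

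Whole left kidneys of adult, wild-caught male Jaculus jaculus (Jerboas) were sequenced after poly-A selection. There were 4 controls (CM) with free access to water and 4 dehydrated animals (DHM). The remaining 5 were rehydrated animals (RHM), which first went without water and were then allowed to drink. All were singly housed on dry food. According to the labels, water was withheld for 11 days in DHM, and for 7 days followed by 3 days with water in RHM. Other durations appear in the study's methods, and the age of the animals is not known. RHM is a group of other animals, sampled once, so the second step is not a change within an animal, and RHM had a shorter restriction than DHM. Each animal is 1 replicate.

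Between 14071802 and 22949762 counts were assigned per animal, with group medians of 21420737 in CM, 19201529 in DHM and 17494755 in RHM. The water channel genes AQP1, AQP2 and AQP3, which mark tubule and collecting duct cells, were measured in every animal. Their lowest values were 327, 98.7 and 42.3 CPM. They differed between the groups without the stepwise order of the members. The means in CM, DHM and RHM were 744, 942 and 490 CPM for AQP1, 219, 638 and 189 CPM for AQP2, and 64.6, 221 and 68.2 CPM for AQP3. The part of cell type shares in the members' fall was not tested. RNA integrity was lower in RHM than in the other groups by the study's account. From the clustering of samples by group, the study proposes that integrity was not a main source of the differences. The kidneys CM01 and RHM01 are described there as set apart by inflammatory genes. A legend in its supplement also names DHM03 for high expression of a gene group enriched for immune terms. Counts of the whole set are also given without CM01 and RHM01. The group means of single genes include both unless stated otherwise.

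The kidney filters blood in the glomeruli and then recovers water and solutes along the tubule. Tubule cells are polarised: the apical membrane faces the urine and carries channels, transporters and endocytic receptors, and the basolateral membrane faces the blood. Protein kinases, which transfer phosphate to proteins, set the activity and membrane position of many of these transporters. In a desert rodent the concentration of urine is under the control of vasopressin and of the salt gradient of the medulla.

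Apart from genes that the study names with an identifier, gene identifiers could not be paired with gene symbols here. Members were therefore described by identifier, position and annotation term. The terms came from a shortened list of Gene Ontology terms in the study's supplement, which held 15 of the 347 members. These terms are labels only and say nothing about which functions are frequent in the set. As the list was shortened, a term missing for a gene does not mean that the gene lacks it. The terms were of the apical and plasma membrane, transmembrane transport, kinase activity and phosphorylation, signalling, lipid metabolism and morphogenesis.

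Over all members, the median of the group means was 35.3 CPM in CM, 24.5 CPM in DHM and 13.4 CPM in RHM. The median ratio of DHM to CM was 0.693, with a range from 0.334 to just under 0.8. The median ratio of RHM to DHM was 0.567 (0.299 to 0.748), and that of RHM to CM was 0.386 (0.117 to 0.584). The second step was therefore the larger for most members. The rule sets this in part, as its limit was stricter for the second step (0.75) than for the first (0.8). On the log2 scale a median of 38.9% of the whole fall was reached in DHM, and 54 members had fallen further in the first step than in the second. By DHM, 20 members were at or below 0.5 of the control mean. By RHM, 34 were at or below 0.25 and 42 were still above 0.5. In whole kidney RNA a lower count can come from fewer cells of a type or from less RNA per cell, and these cannot be told apart.

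**Figure D1:**
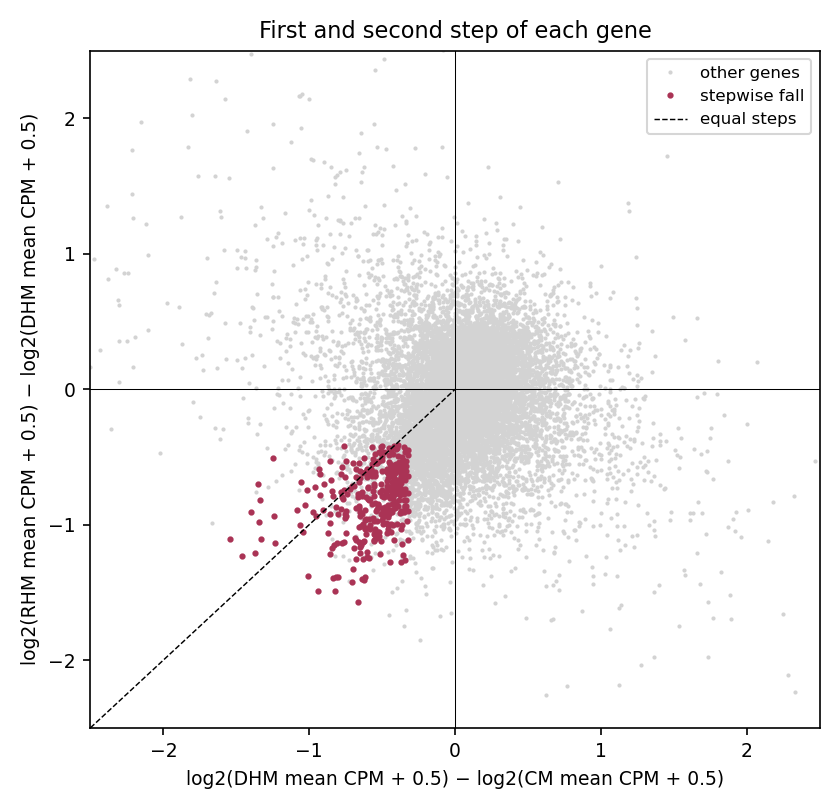
The x axis is the log2 difference of mean CPM from CM to DHM and the y axis that from DHM to RHM, each with 0.5 CPM added; members are dark points, other genes with mean counts of 20 or more are grey, and 56 of those genes, none of them members, lie outside the axes. Most members lie below the dashed line of equal steps, with 54 above it when computed without the added 0.5 CPM. The rule's limit was stricter for the second step than for the first.

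The limits on the ratios cut through a continuum. The 3 members nearest the first limit had DHM to CM ratios from 0.798 to just under 0.8, and the nearest 3 genes beyond it from just over 0.8 to 0.801. For the second limit the RHM to DHM ratios were 0.745 to 0.748 inside and 0.7502 to 0.757 outside. Of the genes with the ordering that met the second limit, 98 missed the first. Only 18 with the ordering that met the first missed the second. The ordering itself was often narrow. The lowest control divided by the highest dehydrated animal had a median of 1.13 over the members, and the lowest control was less than 5% above it in 59. The lowest dehydrated divided by the highest rehydrated animal had a median of 1.15, and the difference was less than 5% in 54.

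Every DHM animal was below every CM animal in 8.43% of genes with mean counts of 20 or more, and every RHM animal was below every DHM animal in 14.1%. Both held in 3.6%, which is 498 genes. With edgeR's quasi-likelihood test, fitted on 15064 genes and with Benjamini-Hochberg adjustment, a gene was called at an adjusted p-value under 0.01. In DHM compared to CM, 10 of the 347 members were called lower, against 0.166% of all genes tested. In RHM compared to DHM, 218 were called lower, against 5.5%, and in RHM compared to CM all 347 were, against 16.2%. DESeq2 called 172, 306 and 347 members lower, against 3.53%, 10.2% and 19.2% of genes. Fitted with only the groups compared, edgeR called 69 members lower in the first step, against 0.764% of genes, and 53 in the second, against 1.33%. Without CM01 and RHM01 it called 41 in the first step, against 0.567%, and 165 in the second, against 3.94%. As these are the contrasts that chose the members, nothing is read from the counts. Leaving out each animal in turn, edgeR called between 0 and 67 members in the first step, against 0.00664% to 0.977% of genes, and between 71 and 282 in the second, against 1.76% to 9.32%. The highest count of the first step came without RHM01, and it was 0 without CM04, CM06, DHM05 or DHM06, with 288 to 320 members then lower at an unadjusted p-value under 0.05, against 9.9% to 12.5% of genes. In the second step the lowest count came without DHM02 and the highest without RHM02.

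The mirror image of the rule, with every ordering and ratio turned round, gave 64 genes after the same removal. Their median ratio to the control mean was 1.31 to 1.48 in the dehydrated animals and 1.88 to 2.14 in the rehydrated ones, where RHM02 was nearest to the controls and RHM01, at 2.08, lay within the range of the others.

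The members were also summed in each kidney, where the rule fixes the order of the groups and in part limits the spread between animals. Their summed share of all counts was 2.51 ± 0.184% in CM (SD, n = 4), 1.65 ± 0.0965% in DHM (SD, n = 4) and 0.972 ± 0.210% in RHM (SD, n = 5). Without CM01 and RHM01 the shares were 2.54 ± 0.215% in CM (SD, n = 3) and 1.05 ± 0.132% in RHM (SD, n = 4). The median ratio of a member to its control mean lay between 0.931 and 1.05 in the control animals. In dehydrated animals it was 0.747 in DHM02, 0.660 in DHM03, 0.707 in DHM05 and 0.655 in DHM06. In rehydrated animals it was 0.265 in RHM01, 0.494 in RHM02, 0.409 in RHM04, 0.375 in RHM07 and 0.377 in RHM08. The same median over all genes with mean counts of 20 or more stayed between 0.971 and 1.05 in every animal.

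**Figure D2:**
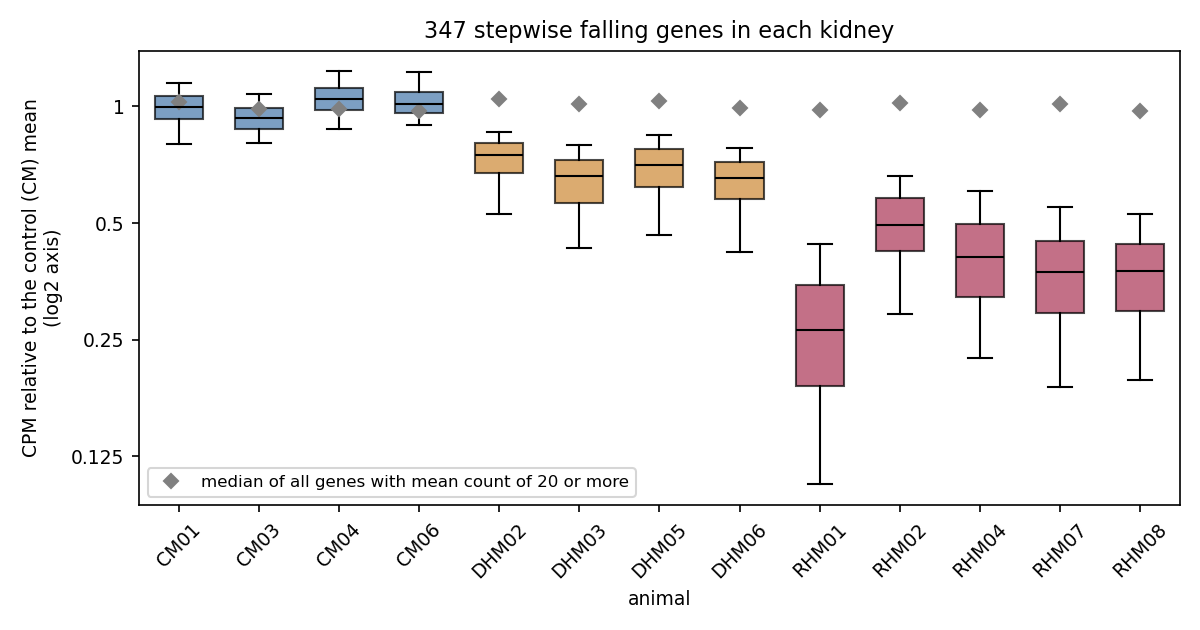
For each kidney, the box gives the quartiles and median of the 347 members' CPM relative to their control mean (log2 axis), the whiskers the 5th and 95th percentiles, and the diamond the median of all genes. The DHM medians lie from 0.655 to 0.747 and the RHM medians from 0.265 in RHM01 to 0.494 in RHM02, while the diamonds stay near 1.

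Most members had the same lowest rehydrated animal, and most had the same highest one. RHM01 was the lowest of its group for 289 members and RHM02 the highest for 266. In DHM, DHM02 was the highest for 193 members, and DHM06 and DHM03 were the lowest for 145 and 138. In CM, CM03 was the lowest for 165 and CM04 the highest for 147. The library with the fewest counts was RHM07, which was the lowest for 23 members.

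The spread of the members within a group differed between groups. The median SD of log2(CPM + 1) was 0.14 for members and 0.18 for all genes in CM, and 0.14 and 0.17 in DHM. In RHM it was 0.34 for members and 0.23 for all genes. Without RHM01 it was 0.25 for members and 0.19 for all genes. The rule bounds DHM on both sides, CM only from below and RHM only from above.

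Chosen again with both CM01 and RHM01 left out, the set held 344 genes, of which 315 were members. Over the members, the median ratio of RHM to CM was then 0.420, and that of DHM to CM 0.699. The median ratio per rehydrated animal ranged from 0.373 to 0.505.

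Each animal was also placed among genes chosen without it. A rehydrated animal was then counted when it lay below every dehydrated one, a control when it lay above every dehydrated one, and a dehydrated animal when it lay between the other groups. Without RHM01 the rule chose 334 genes, and RHM01 lay on the required side for 99.7% of them, against 42.3% of all genes with mean counts of 20 or more. For RHM02 the share was 75.2% of 475 genes, against 27.7%. The other rehydrated animals were at 92.0% (RHM04), 97.5% (RHM07) and 99.4% (RHM08), against 34.4% to 39.2% of all genes. The controls were at 88.1% to 95.8%, against 22.1% to 29.4%. The dehydrated animals were at 81.0% to 89.7%, against 7.64% to 9.16%. RHM02 thus had the lowest share among the rehydrated animals. Shares are not like between groups, as only a dehydrated animal had to meet a bound on each side. The left-out animal shares its groups' comparison animals with the choice of genes, so the shares are descriptions.

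The member with the highest CPM was ENSJJAG00000014991, annotated to the apical plasma membrane. It lies on the minus strand of JH725442.1:47153943-47333388 (JacJac1.0) and has 81 exon blocks with 14122 bases. Controls were at 2630 CPM (CM01), 2446 (CM03), 2858 (CM04) and 3779 (CM06). Dehydrated animals were at 1737 CPM (DHM02), 1404 (DHM03), 1631 (DHM05) and 1384 (DHM06). Rehydrated animals were at 506 CPM (RHM01), 1125 (RHM02), 1304 (RHM04), 1249 (RHM07) and 809.8 (RHM08). RHM01 was thus the lowest kidney, and RHM04 came close to the lowest dehydrated animal. The group means were 2928 ± 592 CPM in CM (SD, n = 4), 1539 ± 173 in DHM (SD, n = 4) and 999 ± 335 in RHM (SD, n = 5). Without CM01 and RHM01 they were 3028 ± 683 in CM (SD, n = 3) and 1122 ± 221 in RHM (SD, n = 4). More of the fall came in the first step (59.8% on the log2 scale) than for the median member. Per kilobase of exon its mean level was 125 CPM, against a median of 13.1 CPM over the members and 16.8 CPM over all genes.

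A second gene with the apical plasma membrane term (JH725443.1:31899504-31936487, plus strand, 12 exon blocks) fell further. Its control values were 25.7 CPM (CM01), 39.7 (CM03), 43.9 (CM04) and 37.1 (CM06). The dehydrated values were 14.7 (DHM02), 12.8 (DHM03), 11.2 (DHM05) and 17.7 CPM (DHM06), and the rehydrated ones 4.96 (RHM01), 6.70 (RHM02), 10.8 (RHM04), 4.33 (RHM07) and 7.72 CPM (RHM08). The mean of DHM was 0.386 of the control mean and that of RHM 0.189, and RHM07 rather than RHM01 was the lowest kidney. Another gene, annotated to the apical part of the cell, the plasma membrane and signal transduction (JH725437.1:36341437-36383323), had a different shape. It was at 101 ± 8.12 CPM in CM (SD, n = 4), 73.6 ± 4.74 in DHM (SD, n = 4) and 44.0 ± 13.6 in RHM (SD, n = 5). RHM02, at 63.6 CPM, was only just below the lowest dehydrated animal, at 66.7 CPM.

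Transport terms were carried by a pair of members. Transporters move solutes across a membrane. The gene at JH725437.1:38728866-38775747, with a short exon length of 726 bases, is annotated to transmembrane transporter activity and chemical homeostasis. It was at 36.3 CPM (CM01), 39.4 (CM03), 38.0 (CM04) and 38.9 (CM06) in controls. In dehydrated animals it was at 24.3 CPM (DHM02), 24.7 (DHM03), 26.2 (DHM05) and 22.0 (DHM06). In rehydrated animals it was at 7.23 CPM (RHM01), 17.8 (RHM02), 12.9 (RHM04), 11.8 (RHM07) and 13.4 (RHM08). The groups were clearly apart, with a ratio of 1.38 between the lowest control and the highest dehydrated animal. The gene at JH725438.1:28054412-28144357 carries terms of transmembrane transport and of protein phosphorylation. It went from 200 ± 42.0 CPM in CM (SD, n = 4) to 98.7 ± 11.9 in DHM (SD, n = 4) and 58.6 ± 20.8 in RHM (SD, n = 5). Its highest rehydrated animal was RHM04 at 85.1 CPM, close to the lowest dehydrated one at 88.2 CPM.

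Kinases and other genes with phosphorylation terms differed in how the fall was divided. A gene annotated to kinase activity with 13 exon blocks (JH725437.1:39919483-39996113) was at 18.2, 17.1, 21.3 and 23.3 CPM in CM01, CM03, CM04 and CM06. It was at 16.5 CPM in DHM02 and between 9.57 and 10.7 in the other dehydrated animals. Rehydrated animals were at 4.11 to 8.56 CPM. DHM02 thus stood near the lowest control, and the ratio between them was only 1.04. A gene annotated to kinase activity with 23 exon blocks (JH725437.1:57372274-57423505) kept 0.784 of its control level in DHM and 0.444 in RHM. Its values were 109 to 120 CPM in CM, 82.9 to 98.3 in DHM and 30.8 to 73.1 in RHM, so that 29.9% of the log2 fall came in the first step. For the gene annotated to protein phosphorylation at JH725438.1:9765332-9788813 that share was 55.5%, with means of 96.6 ± 13.6 CPM in CM (SD, n = 4), 55.8 ± 5.49 in DHM (SD, n = 4) and 36.0 ± 9.04 in RHM (SD, n = 5). A gene listed under phosphotransferase activity (JH725439.1:6714623-6816362) ranged from 79.4 to 109 CPM in CM, from 69.8 to 75.5 in DHM and from 27.9 to 55.3 in RHM.

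Signalling terms, with no membrane term in the shortened list, were carried by 2 members. The gene at JH725437.1:1131741-1388261, with 38 exon blocks, had one of the shallower falls of the set, to 0.791 of control in DHM and 0.577 in RHM. It was at 78.6, 76.2, 92.9 and 85.6 CPM in CM01, CM03, CM04 and CM06, and at 67.4, 65.6, 68.8 and 61.9 CPM in DHM02, DHM03, DHM05 and DHM06. In RHM01, RHM02, RHM04, RHM07 and RHM08 it was at 43.8, 50.4, 49.6, 53.2 and 43.4 CPM. Here RHM01 did not stand apart and RHM08 was the lowest kidney. The gene at JH725437.1:44573156-44812436, annotated to signal transduction and organ development, fell from 20.9 ± 2.59 CPM in CM (SD, n = 4) to 14.7 ± 1.57 in DHM (SD, n = 4) and 7.42 ± 2.37 in RHM (SD, n = 5).

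The gene annotated to lipid metabolism and membrane (JH725437.1:51294153-51345428, 21 exon blocks) had values of 105 to 125 CPM in CM, 74.4 to 96.0 in DHM and 26.3 to 59.8 in RHM. Its ratio was 0.726 in the first step and 0.4998 in the second. Morphogenesis terms, which cover genes that shape cells and organs, were carried by 3 further members. The one with the longest exon length of the whole set, at 14915 bases in 85 exon blocks (JH725439.1:49962353-50219942), was at 249 ± 24.2 CPM in CM (SD, n = 4), 193 ± 14.6 in DHM (SD, n = 4) and 126 ± 8.55 in RHM (SD, n = 5). Its rehydrated animals were close together, from 117 to 136 CPM, whereas its lowest control and highest dehydrated animal differed by a ratio of only 1.01. A cell morphogenesis gene with 35 exon blocks (JH725438.1:1374920-1513664) was at 24.6 to 32.2 CPM in CM, 18.6 to 23.7 in DHM and 7.23 to 16.1 in RHM. A shorter one of 1203 bases (JH725437.1:40949861-40953257) was at 10.2 to 12.1, 7.32 to 9.52 and 2.76 to 6.38 CPM.

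The deepest fall among members with mean counts of 50 or more was that of ENSJJAG00000021647, for which no term was listed. It lies on the plus strand of JH725445.1:40228585-40241339 with 408 bases in 5 exon blocks. Controls were at 9.34 CPM (CM01), 9.72 (CM03), 11.0 (CM04) and 13.99 (CM06). Dehydrated animals were at 6.60 CPM (DHM02), 1.87 (DHM03), 1.98 (DHM05) and 4.26 (DHM06). Rehydrated animals were at 0.674 CPM (RHM01), 1.35 (RHM02), 1.72 (RHM04), 1.42 (RHM07) and 1.26 (RHM08). The dehydrated animals were widely spread, and 2 of them were near the rehydrated range. The mean of RHM was 8.57-fold lower than that of CM, on counts as low as 11 in an animal. The 10 deepest falls had RHM to CM ratios of 0.117 to 0.190, with control means from 5.23 to 561 CPM. A median of 53.4% of their log2 fall came in the first step, against 38.9% over the whole set. The unequal limits of the rule bear on such shares, mostly in members near the limits. The 10 members with the highest CPM had RHM to CM ratios of 0.185 to 0.532, and a median of 38.1% of their fall came in the first step.

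**Figure D3:**
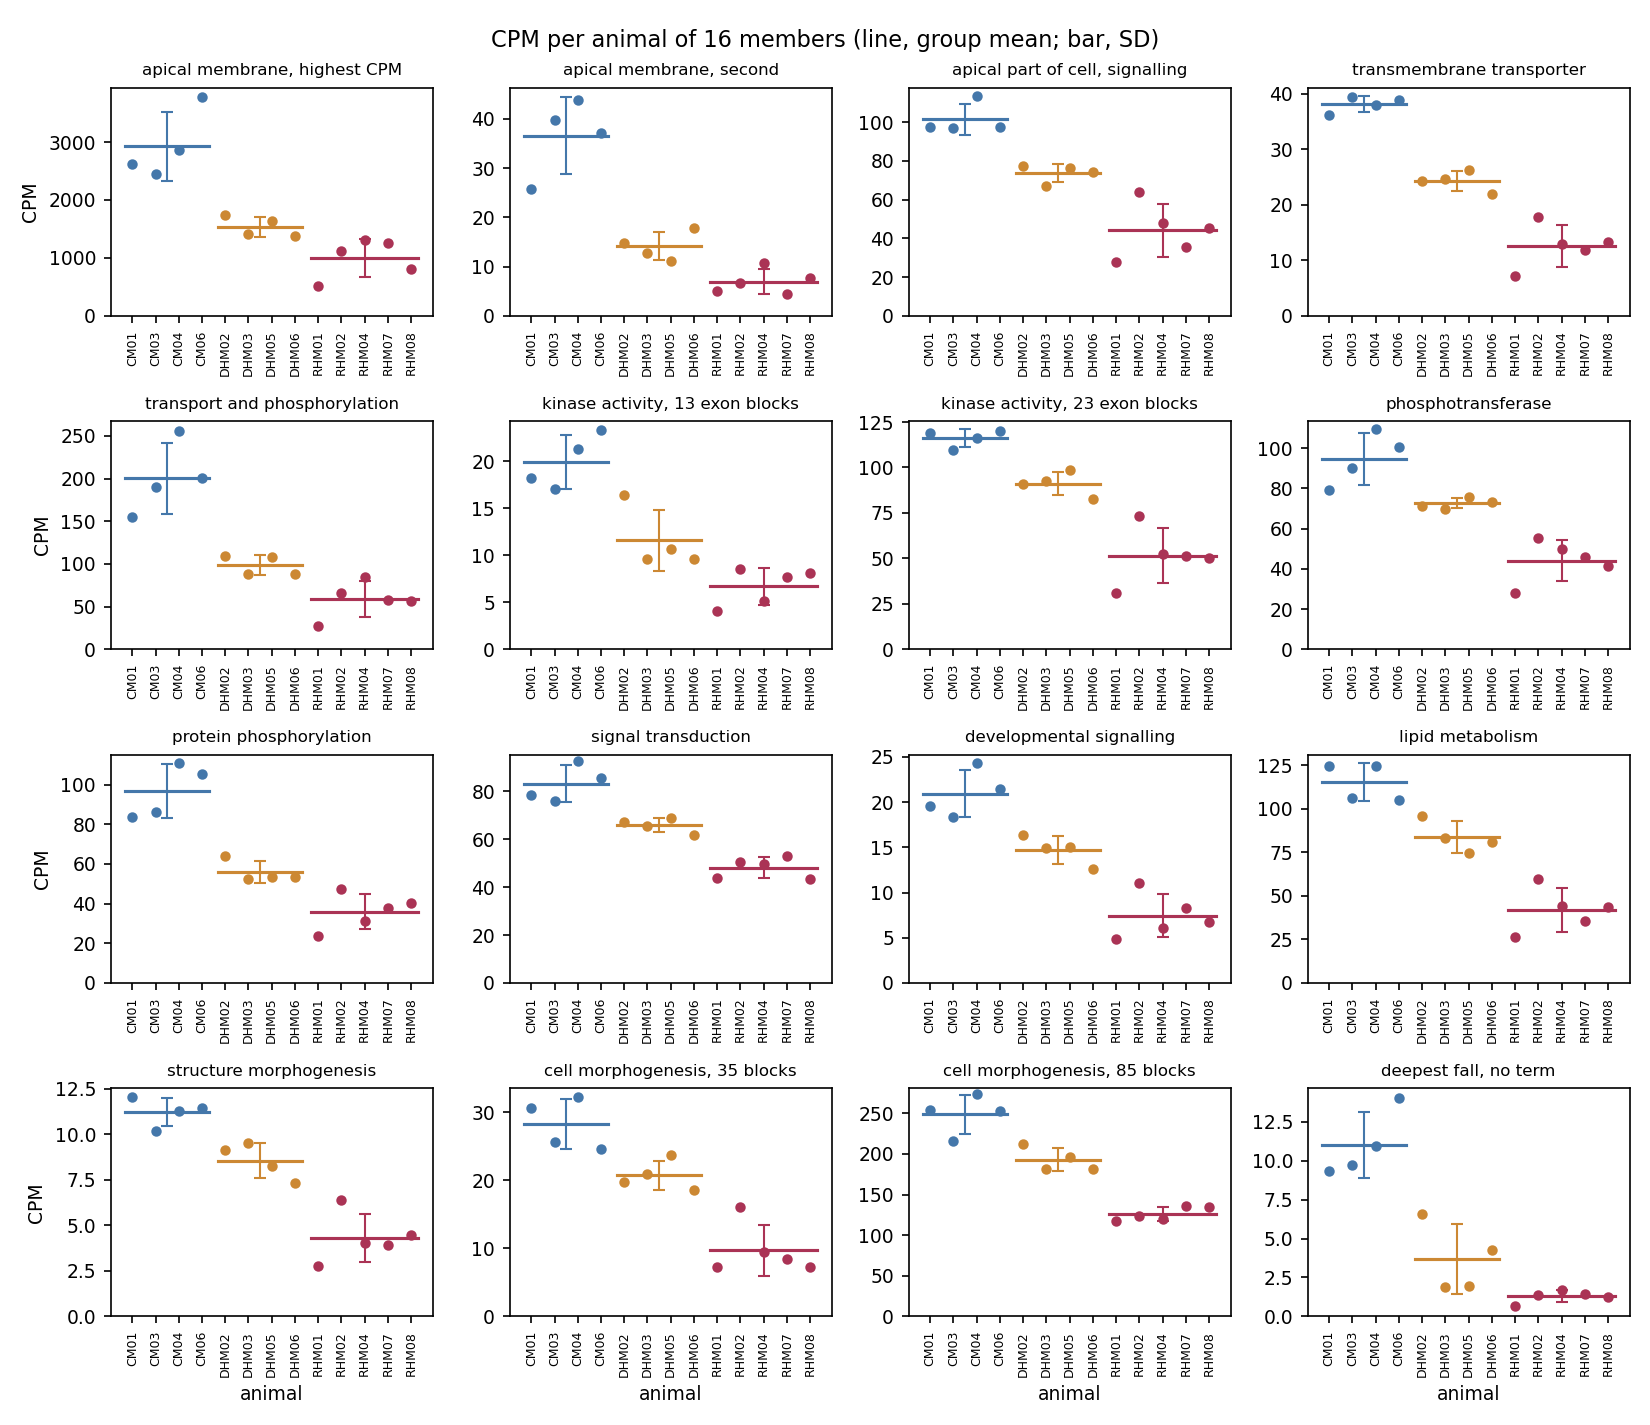
Each panel gives 1 described member by its annotation, with CPM on the y axis from 0 and the 13 animals on the x axis (blue CM, orange DHM, red RHM; points are animals, lines group means, bars SD). No groups overlap in any panel, as the rule requires. RHM01 is the lowest kidney in most panels. The exceptions are the second apical membrane gene and the signal transduction gene with 38 exon blocks.

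The rule did not use the length of a gene directly, although it used counts, which tend to be higher for longer genes. The members had longer exon lengths, taken as the sum over the annotated exons of a gene. The median was 1926 bases against 1349 bases over all genes with mean counts of 20 or more. Members had a median of 11 exon blocks against 8, and spanned a median of 56380 bases of genome against 18095. In the quartile of genes with the shortest exon length, 1.01% were members (35 of 3457). The shares in the following quartiles were 1.88%, 2.81% and, for the longest genes, 4.34% (150 of 3457). The mirror rule gave no such gradient, with 0.405%, 0.492%, 0.550% and 0.405%. Without CM01 and RHM01 the shares of stepwise fall were 0.955%, 2.05%, 2.75% and 4.19%. By level, the shares of members were 1.13%, 3.67%, 2.98% and 2.26% from the lowest to the highest quartile of mean CPM. Counts favour long genes, as more fragments come from a longer transcript. The median of mean CPM was 24.1 over the members and 22.8 over all genes with mean counts of 20 or more. Divided by exon length, which was longer in members, the medians were 13.1 and 16.8 CPM per kilobase.

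Length was also related to the difference between groups over all genes. The median log2 fold change of RHM compared to CM was 0.17 in the shortest quartile, then 0.03 and −0.03, and −0.14 in the longest. In the same order it was 0.03, 0.01, −0.003 and −0.03 in DHM compared to CM. In RHM compared to DHM it was 0.13, 0.005, −0.04 and −0.13, so most of the trend lay in the second step. For members, whose values the rule itself limits, the median of RHM compared to CM was −1.35, −1.46, −1.42 and −1.34. The genes outside the set were also compared within each animal, as the median log2 ratio to the control mean in the longest quartile minus that in the shortest. It was between −0.04 and 0.04 in controls and between −0.09 and 0.02 in dehydrated animals. In RHM it was −0.36 in RHM01, −0.16 in RHM02, −0.24 in RHM04, −0.21 in RHM07 and −0.28 in RHM08. RHM01 and RHM02 were thus the extremes of their group both in this measure and in the members. Among the members, again within what the rule allows, ratios were compared by length. In RHM01 the median ratio to the control mean was 0.2503 for the 101 members up to the median exon length of all genes, and 0.270 for the 246 longer ones. In RHM02 it was 0.490 and 0.506.

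When CPM were scaled with TMM library sizes and corrected per animal for exon length, which was chosen after the lengths had been seen, the rule gave 373 genes, of which 282 were members. Their shares by length quartile were 1.91%, 2.20%, 3.24% and 3.44%. With TMM library sizes alone the rule gave 425 genes, of which 331 were members, and the shares were 1.24%, 2.26%, 3.41% and 5.38%. The correction removes the length trend of each animal by construction, so a flatter gradient with it is no independent result. In edgeR with the length offset, 22 members were called lower in DHM compared to CM, 168 in RHM compared to DHM and 347 in RHM compared to CM, in contrasts that the rule used. The shares of all genes called lower in that fit were 0.332%, 4.04% and 14.8%. The lower RNA integrity of RHM moved with the group, and its part in the fall cannot be told apart from rehydration in these data.

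**Figure D4:**
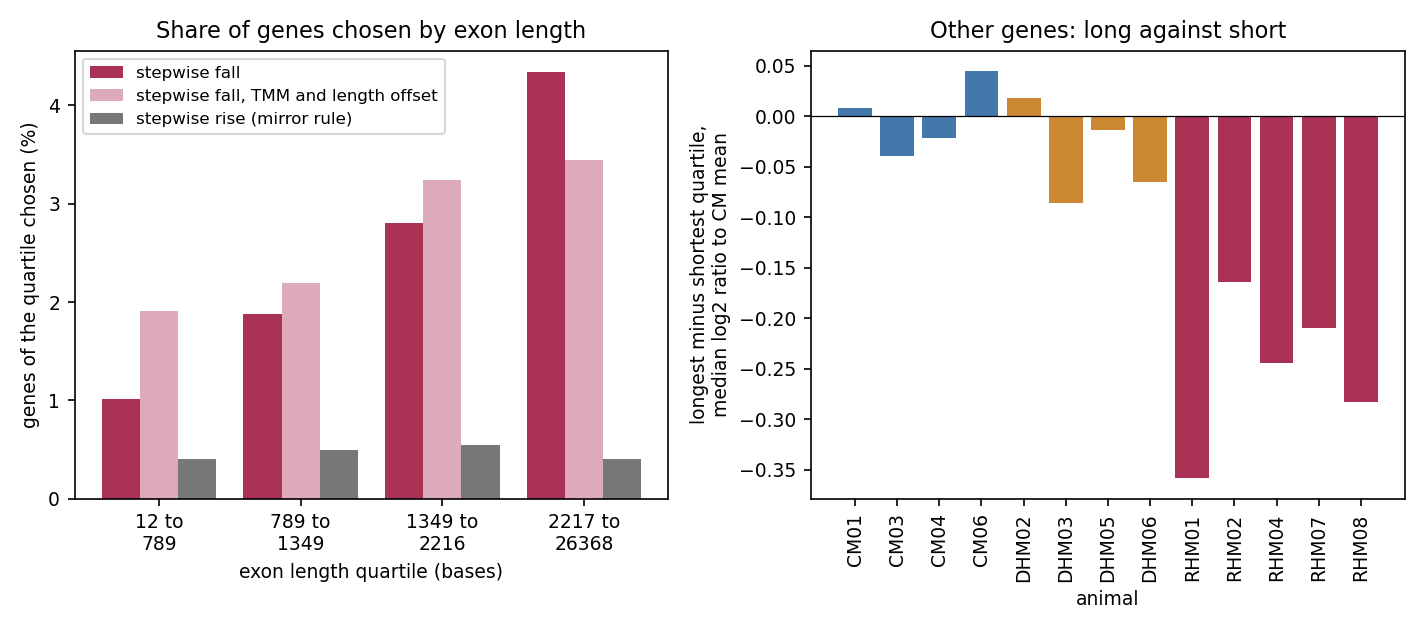
Left, the percentage of genes in each exon length quartile that were chosen by the rule, by the rule on CPM scaled with TMM and corrected for length, and by the mirror rule; right, for each animal, the median log2 ratio to the control mean of the longest minus the shortest quartile of genes outside the set. The share of members goes from 1.01% to 4.34%, and from 1.91% to 3.44% after scaling with TMM and correction, while every RHM bar lies below every CM and DHM bar.

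The members were spread over 124 of the 293 scaffolds that hold genes with mean counts of 20 or more. A member was the neighbour of another for 36 of the 347 (10.4%), whereas 4.65% of the other genes had a member as neighbour. There were 20 such adjacent pairs, of which 12 were on opposite strands and none shared exon bases. Only 4 pairs were on the same strand within 50000 bases. Of all members, 6 shared exon bases with another annotated gene, where fragments could not be assigned to either. None of the 16 described members was among them. Depth was ample for most members, as the lowest animal had a median of 139 counts and 5 members had an animal with fewer than 10.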

How the data were processed

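Counts from 13 kidneys, whose RNA was sequenced as read pairs, were used. The authors trimmed reads with BBDuk, aligned them with Rsubread to JacJac1.0 and assigned fragments to genes with featureCounts, without using strand; the deposited values are raw counts per gene and animal, and exon lengths come from the same table. Of its per-sample columns, 2 have no sample label among those used and were left out. Columns were matched to the animals by the initials of the group and the number in the title of a sample. CPM used the total count of each animal, which ranged from 14071802 to 22949762. All 3 groups were fitted together with edgeR 4.0.16 in R 4.3.3 (TMM, mean count of at least 8, quasi-likelihood test, Benjamini-Hochberg adjustment), and DESeq2 1.42.0 was run as an alternative. Fits with other scaling, count filters, groups, a block for the animal number, an exon length offset and each animal left out are given in the closing section. The members, lists and alternatives were chosen with earlier results of these data known. Genes printed are those of the highest CPM and deepest fall and all members in the list of terms. The rule set for naming genes by symbol lists, the symbol markers of kidney cell types and the promoter motifs could not be applied without symbols, and no sequence is shown. Whether animals of the same number are related is not stated.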

Additional observations from a re-analysis of the deposited data

Results flagged for a closer look

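Of 54 groups of values checked, which were the groups of the 16 described members and those of 2 summaries per animal, 4 held an animal far from the others of its group. Chance sets about 5% of groups apart in this way. The gene annotated to kinase activity with 13 exon blocks was at 16.5 CPM in DHM02, and the gene annotated to protein phosphorylation at 64.0 CPM in DHM02, each above the other dehydrated animals. The cell morphogenesis gene with 35 exon blocks was at 16.1 CPM in RHM02, above the other rehydrated animals. The gene annotated to the apical part of the cell and signal transduction was at 114 CPM in CM04, above the other controls. DHM02 and RHM02 were also the animals with the highest values of their group for most members.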

How the results depend on the processing

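The rule gave 158 genes with stricter ratios of 0.7 and 0.65. Under the other planned settings it gave 340 to 494 genes, and without each animal in turn 334 to 475. In the following, the share of all genes called lower in the same fit stands in brackets. With edgeR, the count of 10 members called lower in DHM compared to CM (0.166%) became 22 with a mean count of at least 20 (0.347%), 22 with the exon length offset (0.332%), 69 with only the groups compared (0.764%), 41 without CM01 and RHM01 (0.567%), and 137 at an adjusted p-value under 0.05 (2.83%). With DESeq2 it was 172 (3.53%). Leaving out each animal gave 0 to 67, with 67 without RHM01 (0.977%), 23 without RHM02 (0.339%), 18 without RHM04 (0.259%), 3 without DHM02 (0.0598%), 2 without RHM08 (0.0399%), 1 without DHM03 (0.0199%) and 0 without CM04, CM06, DHM05 or DHM06 (0.00664% to 0.0133%); in these last fits 288 to 320 members were lower at an unadjusted p-value under 0.05, as were 9.9% to 12.5% of genes. The count of 218 in RHM compared to DHM (5.5%) became 53 with only the groups compared (1.33%) and 333 at an adjusted p-value under 0.05 (14.1%). Leaving out each animal gave 71 to 282, and the counts were 71 without DHM02 (1.76%), 75 without RHM08 (1.89%), 84 without DHM06 (2.02%), 89 without DHM05 (2.21%), 105 without RHM07 (2.77%), 119 without DHM03 (2.75%) and 137 without RHM04 (3.1%). In RHM compared to CM the counts stayed at 346 to 347 without each animal (13.2% to 17.8%). The cause of these shifts was not tested. With the animal number as a block, edgeR called 0 members lower in DHM compared to CM (0%), 0 in RHM compared to DHM (0%) and 256 in RHM compared to CM (5.07%). At an unadjusted p-value under 0.05 the first 2 counts were 320 and 278, against 11.3% and 11.8% of genes. The deviations of animals with the same number from their group means correlated by 0.130 on average over 5 pairs (−0.0408 to 0.385), against −0.0111 over 51 other pairs (−0.261 to 0.292), and the highest was that of CM01 and RHM01. As some same-numbered pairs were not correlated and the labels do not relate them, the numbers were not taken to pair the animals. Of 1008 fitted fold changes of the described members under alternatives, 901 kept their direction and side of the threshold, 76 lost and 31 gained a call, and none changed direction.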
